A study of Mus musculus with 6 samples.

Results

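The PEA3 factors are the ETS-domain transcription factors Etv1 (also ER81), Etv4 (PEA3) and Etv5 (ERM). All array probesets that the platform annotation assigns to one of these genes alone were taken, which gave 5 probesets of 3 genes, out of 21789 single-gene probesets of 19938 genes. Etv5 and Etv1 had 2 probesets each and Etv4 had 1. The genes were chosen by the ethanol and saline values of these same arrays, since Etv5 was among the genes with the lowest ethanol minus saline differences. The values of all 5 probesets in that comparison are therefore given as a description, with no test.

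Whole-brain RNA came from male C57BL/6J mice, an inbred strain, at postnatal day 7. The ethanol pups had received 20% ethanol in 0.15 M saline under the skin, as 2 doses of 2.5 g/kg given 2 h apart, and the saline pups 0.15 M saline alone. Brains were taken 4 h after the first injection, and each array held RNA pooled from 3 males of different litters. There were 2 ethanol arrays (2 and 4) and 4 saline arrays (1, 3, 5 and 6), from 18 mice with no transgene named in the labels. Levels below are log2 intensities, and differences are ethanol minus saline on the log2 scale.

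PEA3 factors bind DNA through a shared ETS domain and act mainly as activators. Their genes are induced by FGF, GDNF and other growth factors through the Ras-ERK kinase cascade, and they are used as readouts of that cascade, together with the feedback inhibitors of the Dusp, Sprouty and Spred families. The repressor Capicua holds these genes down until ERK signalling relieves it, and the COP1 ubiquitin ligase targets the proteins for destruction. In the brain, Etv1 marks layer 5 cortical neurons and takes part in the maturation of cerebellar granule cells and of dopaminergic neurons of the olfactory bulb, while Etv5 is found in glial and progenitor cells.

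Start-site sequence is shown because Etv5, Spred3 and Dusp6 were among the lowest genes of the pathway described below. RefSeq promoter windows (GRCm38.p6, 250 bases before to 50 after a start) were present for 2 of the 3 members, each with 2 starts. They were searched on both strands for TGAATG, one form of the core of the Capicua site, and for AGGAAG, the motif for which PEA3 was named. Other forms of the Capicua site and its flanking bases were not searched, so the counts are of these letters only. TGAATG occurred in 12.7% of the 32851 windows of this length, at least 2 times in 1.28% and at least 3 times in 0.17%. AGGAAG occurred in 35.4%. Capitals mark either motif, read as CATTCA or CTTCCT where it lies on the other strand, and matches of one motif did not overlap those of the other. The upstream Etv5 window (chr16:22439521-22439820, minus strand) had no match, while the downstream one (chr16:22438319-22438618, minus strand) had 3 TGAATG and 1 AGGAAG. The Etv1 window at chr12:38779832-38780131 (plus strand) had 2 overlapping AGGAAG, and the other Etv1 window had no match to either motif. The window of Spred3 (chr7:29168598-29168897, minus strand) had 2 TGAATG, and that of Dusp6 (chr10:99262981-99263280, plus strand) had 1 of each motif. Windows of some listed ERK feedback and output genes, among them Spry4, Dusp4 and Ccnd1, were absent or left out of the count. Of the 14 genes whose windows were counted, 5 had TGAATG (Dusp5, Dusp6, Epha2, Ier3 and Spred3). Of these Dusp6, Spred3 and Dusp5 had differences of -0.70, -0.39 and -0.33, Ier3 had one of 0.09 and Epha2 was dim. Dusp7 (-0.26), Spry2 (-0.24) and Spry1 (-0.19) had no TGAATG in their windows. A match describes the letters in the window and is not evidence of binding.
Etv5 downstream start: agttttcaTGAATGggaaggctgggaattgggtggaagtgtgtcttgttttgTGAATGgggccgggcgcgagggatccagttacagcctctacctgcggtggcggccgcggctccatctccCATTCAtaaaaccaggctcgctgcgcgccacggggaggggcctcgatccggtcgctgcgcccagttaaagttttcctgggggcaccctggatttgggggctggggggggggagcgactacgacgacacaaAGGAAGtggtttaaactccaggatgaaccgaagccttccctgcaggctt
Etv5 upstream start: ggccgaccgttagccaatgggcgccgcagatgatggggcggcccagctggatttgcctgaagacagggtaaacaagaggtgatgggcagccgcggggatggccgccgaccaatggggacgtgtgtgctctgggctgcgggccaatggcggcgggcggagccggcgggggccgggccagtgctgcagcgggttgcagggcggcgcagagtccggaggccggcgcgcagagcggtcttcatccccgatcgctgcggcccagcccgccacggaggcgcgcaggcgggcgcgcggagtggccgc
Etv1 first start: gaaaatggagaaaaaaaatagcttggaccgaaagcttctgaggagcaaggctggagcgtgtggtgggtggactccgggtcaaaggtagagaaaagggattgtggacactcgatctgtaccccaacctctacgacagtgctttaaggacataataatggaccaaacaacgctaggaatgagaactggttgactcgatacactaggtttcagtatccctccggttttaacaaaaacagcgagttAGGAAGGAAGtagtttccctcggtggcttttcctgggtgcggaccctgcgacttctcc
Spred3 start: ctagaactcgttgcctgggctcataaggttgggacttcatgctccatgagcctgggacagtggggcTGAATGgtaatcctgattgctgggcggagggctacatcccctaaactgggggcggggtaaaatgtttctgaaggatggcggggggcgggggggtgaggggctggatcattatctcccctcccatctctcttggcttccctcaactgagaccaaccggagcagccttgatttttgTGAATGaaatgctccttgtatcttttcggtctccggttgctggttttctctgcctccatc
Dusp6 start: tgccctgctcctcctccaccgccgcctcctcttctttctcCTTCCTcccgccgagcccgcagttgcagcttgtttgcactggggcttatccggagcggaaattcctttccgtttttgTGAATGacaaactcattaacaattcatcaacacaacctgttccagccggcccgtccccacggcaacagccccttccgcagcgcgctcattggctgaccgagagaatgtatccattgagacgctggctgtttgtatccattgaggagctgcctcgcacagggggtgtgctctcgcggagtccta

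Whole-series facts that touch these values were few. Pairs of arrays correlated across 14953 tested genes with r of 0.995 to 0.999. On the first principal component (40.9% of the variance) saline array 3 lay at 13.5 and the other saline arrays between -2.13 and 2.95. Ethanol arrays 2 and 4 lay at -6.61 and -7.49, beyond all saline arrays on the side away from array 3. Differences are therefore also given without saline array 3. Olfactory and vomeronasal receptor genes, taken as a guide to background, had a median level of 5.35 and a 95th percentile of 6.21. For the tissue label, the 8 neuron markers were all above the filter on dim genes, with a mean level of 12.2 to 12.4 on every array. Of 5 liver and muscle markers, Alb and Myh4 were dim, and the other 3 passed the filter, with means of 6.26 for ethanol and 6.39 for saline for Apoa2, 6.33 and 6.44 for Ckm and 6.97 and 7.17 for Acta1, all these means above the guide. In whole-brain RNA, fewer cells of a type and less RNA per cell cannot be told apart.

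Etv5 was the lowest of the 3 factors with ethanol relative to saline. On probeset 10438626 its level was 8.12 and 8.12 on ethanol arrays 2 and 4, against 8.93, 8.78, 8.68 and 8.65 on saline arrays 1, 3, 5 and 6. The ethanol arrays lay below every saline array, and the nearest saline array was 6. The means were 8.12 ± 0.0021 (SD, n = 2) with ethanol and 8.76 ± 0.13 (SD, n = 4) with saline, a difference of -0.64 ± 0.08 (SE), or 0.640 of the saline level. The gap from the higher ethanol array to the lowest saline array was -0.53, against a range of 0.28 among the saline arrays.

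The second Etv5 probeset, 10363901, read 8.85 and 8.73 on ethanol arrays 2 and 4, against 9.41, 9.19, 9.28 and 9.15 on saline arrays 1, 3, 5 and 6. The groups again did not overlap, and saline array 1 was the highest on both probesets. Means were 8.79 ± 0.09 (SD, n = 2) with ethanol and 9.26 ± 0.11 (SD, n = 4) with saline, a difference of -0.47 ± 0.08 (SE), or 0.724 of the saline level. This is the probeset that stood for Etv5 in the fit across genes, because its mean over the arrays was the higher. Its difference was the sixth lowest of 14953, which is the value that brought the gene to attention.

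Etv4, the factor for which the subfamily is named, had a single probeset close to background. Probeset 10391490 read 6.07 and 6.02 on ethanol arrays 2 and 4, against 6.29, 6.26, 6.25 and 6.27 on saline arrays 1, 3, 5 and 6. Both ethanol arrays were below the background guide of 6.21 and all 4 saline arrays were above it. Means were 6.04 ± 0.03 (SD, n = 2) with ethanol and 6.27 ± 0.02 (SD, n = 4) with saline, a difference of -0.23 ± 0.06 (SE), or 0.853 of the saline intensity. At such a level the intensity holds background as well as transcript. The ratio can understate a difference in transcript, and a difference in background can also enter it. Which of these applies was not tested. The saline arrays spanned only 0.04 and the ethanol arrays 0.05.

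Etv1 differed least. Probeset 10395457 read 10.64 and 10.55 on ethanol arrays 2 and 4, against 10.66, 10.87, 10.76 and 10.70 on saline arrays 1, 3, 5 and 6. Its means were 10.60 ± 0.06 (SD, n = 2) with ethanol and 10.75 ± 0.09 (SD, n = 4) with saline, a difference of -0.15 ± 0.07 (SE), or 0.899 of the saline level. Saline array 3 was the highest, and the gap between the groups, -0.02, was small beside the saline range of 0.21. The other probeset, 10406934, read 10.81 and 10.80 on ethanol arrays 2 and 4, against 10.87, 10.89, 10.90 and 10.82 on saline arrays 1, 3, 5 and 6. Its difference was -0.06 ± 0.06 (SE), with means of 10.81 ± 0.01 (SD, n = 2) for ethanol and 10.87 ± 0.04 (SD, n = 4) for saline. The groups were separated by -0.001, so saline array 6 was practically level with ethanol array 2.

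**Figure D1:**
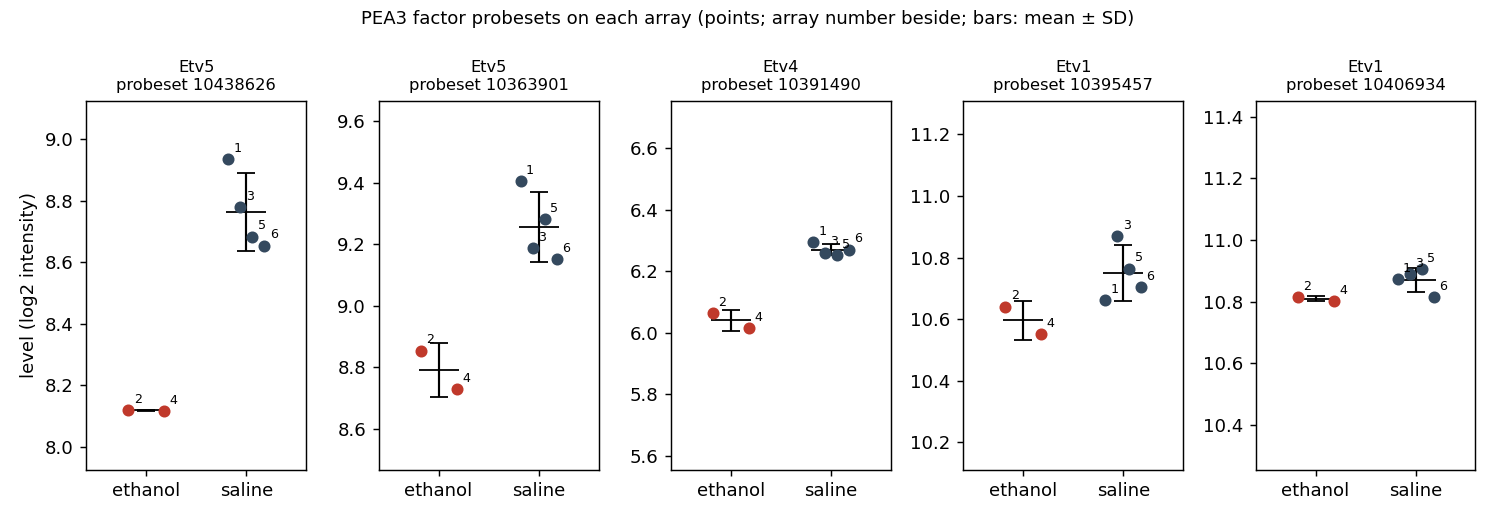
Levels (log2 intensity, vertical axis) of the 5 PEA3 factor probesets on ethanol and saline arrays, all panels spanning the same log2 range. Points are arrays with their numbers, and bars give mean ± SD; the groups stand far apart for both Etv5 probesets, closely for Etv4 and hardly at all for Etv1 probeset 10406934.

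Both ethanol arrays lay below all saline arrays for 5 of 5 probesets. Of all tested genes, 14.9% had that arrangement and 7.68% the opposite one. Because the genes were chosen with these values in view, nothing is read from that count. Without saline array 3 the differences were -0.64 and -0.49 for Etv5 (10438626 and 10363901), -0.23 for Etv4, and -0.11 and -0.06 for Etv1 (10395457 and 10406934).

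The 2 probesets of Etv5, and those of Etv1, differed in where their identifiers lie in the array's numbering, which follows the chromosomes. For 96.6% of 21678 single-gene probesets, most of the 10 nearest annotated identifiers on each side belonged to genes of the same chromosome. Etv5 lies on chromosome 16 (chr16:22381313-22439570, GRCm38.p6), and 19 of the 20 neighbours of probeset 10438626 were on that chromosome. All 20 neighbours of Etv5 probeset 10363901 were on chromosome 10. For Etv1 on chromosome 12 (chr12:38780082-38870483), all 20 neighbours of probeset 10395457 were on chromosome 12, but none of those of 10406934, of which 18 were on chromosome 13. The Etv4 probeset had 20 of 20 neighbours on its own chromosome, 11 (chr11:101769747-101785310). In both genes, the probeset numbered with the gene's own chromosome had the larger difference (-0.64 against -0.47 for Etv5, and -0.15 against -0.06 for Etv1). Whether the other 2 probesets read transcripts from elsewhere was not tested.

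Genes with values most like those of Etv5 were then sought among the 14950 other tested genes. Likeness was the root mean square (RMS) difference over the 6 arrays after each gene was centred on its own mean, and the measure takes in the ethanol and saline difference itself. The nearest gene to Etv5 probeset 10438626 was Dusp6, the phosphatase that inactivates ERK (RMS difference 0.06). Dusp6 read 8.12 and 8.15 on ethanol arrays 2 and 4, against 8.95, 8.84, 8.71 and 8.84 on saline arrays 1, 3, 5 and 6. It was followed by the activity-induced nuclear receptor gene Nr4a1 (0.11), the ERK pathway inhibitor gene Spry4 (0.11), the potassium channel gene Kcnj2 (0.12) and Ltv1, a ribosome assembly factor (0.13). Spry4 read 8.08 and 8.15 on ethanol arrays 2 and 4, against 8.82, 8.64, 8.35 and 8.58 on saline arrays 1, 3, 5 and 6. Like Etv5, Dusp6, Spry4 and Kcnj2 had their highest value on saline array 1, while Nr4a1 and Ltv1 had theirs on saline array 3. How many of all tested genes were highest on saline array 1 was not counted.

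With each group centred on its own mean, so that the ethanol and saline difference no longer counts, Dusp6 ranked 61 of 14950 in likeness to Etv5 probeset 10438626. In that measure Nr4a1 ranked 327, Spry4 947, Kcnj2 1589 and Ltv1 10639. The RMS of Etv5 about its group means was 0.0893, which is also its RMS difference to a gene with no variation within groups. The RMS difference was 0.0558 to Dusp6, 0.0716 to Nr4a1, 0.0829 to Spry4, 0.0895 to Kcnj2 and 0.132 to Ltv1. Kcnj2 and Ltv1 were therefore no more like Etv5 within groups than such a flat gene, and Spry4 only slightly more. These ranks describe 6 arrays and carry no test.

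For Etv5 probeset 10363901 the nearest genes were the small nucleolar RNA gene Snord14e (RMS difference 0.06), the G-protein regulator gene Rgs4 (0.07), the Ras-ERK inhibitor gene Spred3 (0.07), the innate immune adaptor gene Sting1 (0.08) and Hspbap1 (0.08). Spred3 read 7.95 and 7.89 on ethanol arrays 2 and 4, against 8.50, 8.22, 8.22 and 8.28 on saline arrays 1, 3, 5 and 6. With each group centred on its own mean, Snord14e ranked 94, Rgs4 128, Sting1 156, Hspbap1 640 and Spred3 878 of 14950 in likeness to this probeset. The genes nearest to Etv4 were Gpatch4 (0.01), Rasgrp4, Cdhr4, Cbwd1 and Lyar, at 0.02 each. Rasgrp4 (difference -0.25) and Cdhr4 (-0.23) were below the background guide on every array. Cbwd1 (-0.20) and Lyar (-0.26) were above it on every array. Gpatch4 (-0.22), like Etv4, was below it on the ethanol arrays and above it on the saline arrays. The flatter Etv1 probesets had as neighbours St8sia4, Ccdc78, Gm9922, Trib3 and Ccdc121 (10395457), and Slc26a11, Zfp719, Zmym2, Jph1 and Vwa3a (10406934), all within 0.02. The 2 probesets of Etv5 shared none of their 5 nearest genes, nor did those of Etv1.

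**Figure D2:**
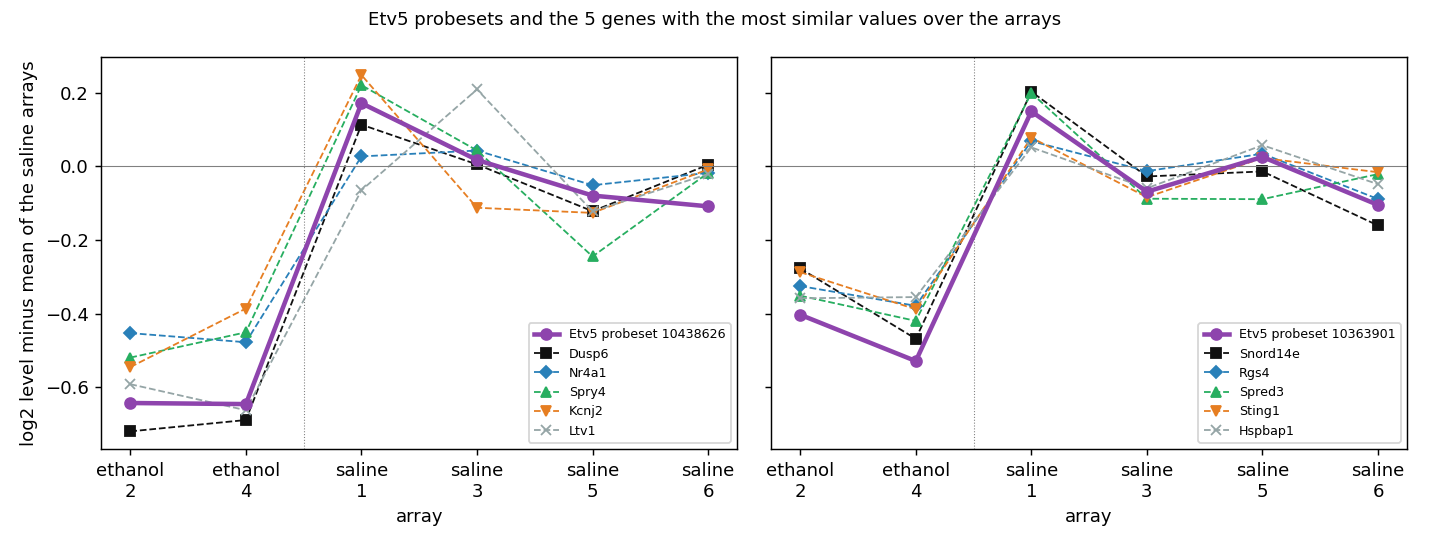
Level of each Etv5 probeset (purple) and of its 5 nearest genes on every array, as log2 level minus the mean of the saline arrays (vertical axis). Ethanol arrays 2 and 4 are left of the dotted line. In the left panel Dusp6 runs closest to Etv5 probeset 10438626. Dusp6, Spry4 and Kcnj2 share its high value on saline array 1, while Nr4a1 and Ltv1 are highest on saline array 3.

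Genes around the PEA3 factors were read from the limma fit across all 14953 tested genes, in which 12 genes had a Benjamini-Hochberg adjusted p below 0.05 (0.0803%). Of these 3 (0.0201%) were lower and 9 (0.0602%) higher with ethanol. At an unadjusted p below 0.05, 8.44% of tested genes were lower and 3.85% higher, and the median difference of all was -0.02. The lists around the factors come from the same comparison, and some of their members were known to be low when the lists were drawn up, so they are not independent of the choice of Etv5.

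ERK feedback and output genes were mostly lower. Of 18 tested genes, 1 fell in limma (Dusp6), 0 rose, and 10 were lower and 0 higher at an unadjusted p below 0.05. The median difference was -0.17, with 14 below 0 and 4 above (58.6% of all tested genes were below 0). Dusp6 fell by 0.70 ± 0.07 (SE) on the log2 scale (limma adjusted p = 0.00151), with means of 8.13 ± 0.02 (SD, n = 2) for ethanol and 8.84 ± 0.10 (SD, n = 4) for saline. Over the alternatives its limma adjusted p ran between 0.000252 and 0.269, and the value with no variance prior was 0.269.

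The genes that follow did not pass in the fit as described. Spry4 had a difference of -0.49 ± 0.10 (limma adjusted p = 0.0838) and Ccnd1, the cyclin of G1 entry, one of -0.30 ± 0.06 (0.0827). Spry4 passed in limma without saline array 5 (adjusted p = 0.0478), and Ccnd1 with the dimmest 50% left out (0.0484) or a variance trend (0.0387). Over all alternatives their limma adjusted p ran from 0.0478 to 0.443 for Spry4 and from 0.0387 to 0.416 for Ccnd1. Differences of the other Sprouty and Spred genes were -0.39 for Spred3, -0.24 for Spry2, -0.19 for Spry1, -0.09 for Spred1, -0.07 for Spred2 and 0.05 for Spry3. The MAP kinase phosphatase genes Dusp5, Dusp4 and Dusp7 had -0.33 ± 0.10, -0.33 ± 0.10 and -0.26 ± 0.06. The ethanol arrays differed for 2 of these genes, with array 4 the lower. Dusp5 read 6.41 and 5.95 on ethanol arrays 2 and 4 (saline mean 6.52), and Dusp4 7.43 and 7.03 (saline mean 7.56). In limma Dusp5 passed without ethanol array 2 and Dusp7 with a variance trend. The 4 members above 0 were Spry3, Errfi1 (0.07), Flrt3 (0.08) and Ier3 (0.09). Etv5 probeset 10438626 thus lay between Dusp6 and Spry4, and Etv4 near Spry2.

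**Figure D3:**
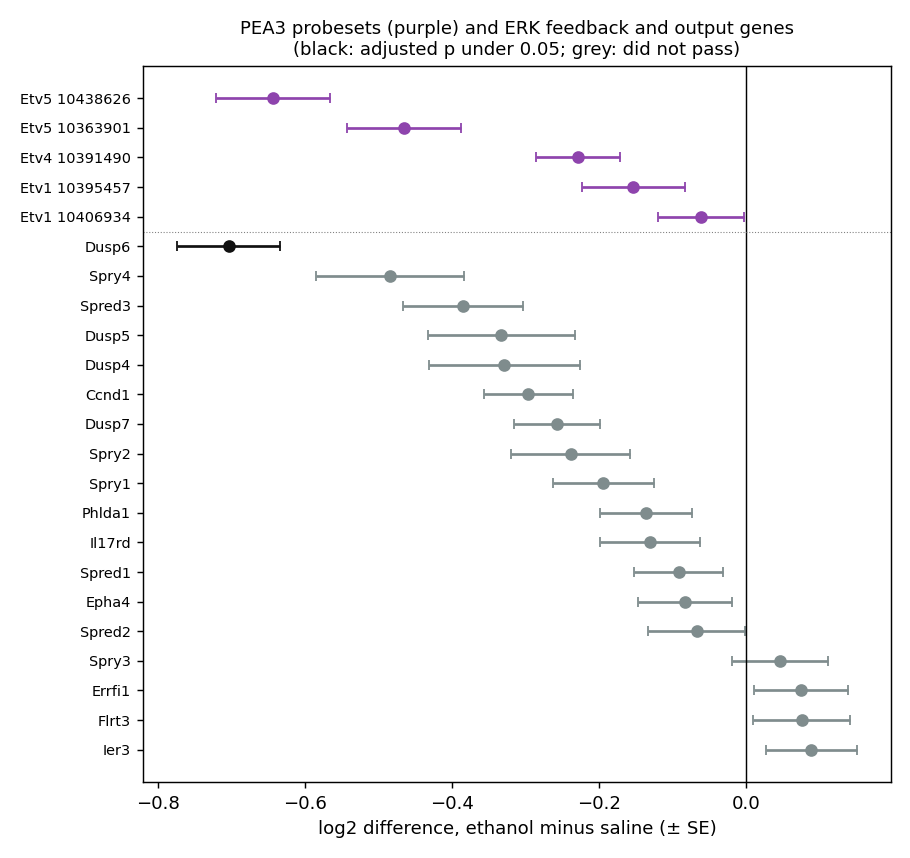
Differences (log2, ethanol minus saline, horizontal axis, bars ± SE) of the 5 PEA3 factor probesets (purple) and 18 ERK feedback and output genes. Dusp6 (black, -0.70) passed the test across genes, and 14 of the 18 genes lie below 0.

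Immediate early targets of ERK had 9 tested and 6 dim members, and all 9 differences were below 0 (median -0.15). In limma 1 fell and 0 rose, and 4 were lower and 0 higher at an unadjusted p below 0.05. Nr4a1 fell by 0.47 ± 0.06 (SE) on the log2 scale (limma adjusted p = 0.0104). It read 8.14 and 8.11 on ethanol arrays 2 and 4, against 8.62, 8.63, 8.54 and 8.57 on saline arrays 1, 3, 5 and 6. Without ethanol array 2 or 4 its limma adjusted p was 0.0803 or 0.214, and after centring of the arrays 0.0522, in a range of 0.00375 to 0.269 over the alternatives. The zinc finger gene Egr3 had a difference of -0.33 ± 0.07 (limma adjusted p = 0.103) and Myc, a growth regulator, one of -0.36 ± 0.11 (0.232), and neither passed. With array weights Egr3 passed (limma adjusted p = 0.0450, in a range of 0.0450 to 0.467 over the alternatives).

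Upstream of the factors, no gene passed in limma. Growth factor ligands (19 tested) had a median of -0.12, with 7 lower and 0 higher at an unadjusted p below 0.05. After quantile normalization the median was -0.07, with 5 genes at an unadjusted p below 0.05. Among the 7 were Pdgfc (-0.23 ± 0.06) and Fgf18 (-0.19 ± 0.07). Bdnf (-0.21 ± 0.08) and Fgf8 (-0.18 ± 0.08) were also among them, both below the background guide. Their means were 5.64 for ethanol and 5.85 for saline for Bdnf, and 5.98 and 6.15 for Fgf8. Gdnf, an inducer of Etv4 and Etv5 in the mouse kidney, had -0.09 ± 0.07, with means of 5.66 for ethanol and 5.76 for saline, also below the guide. The receptor kinases and co-receptors (16 tested) had a median of -0.01, with 2 lower and 0 higher at an unadjusted p below 0.05. These were Fgfr4 (-0.24 ± 0.09) and Erbb3 (-0.26 ± 0.11), both with group means below the background guide, while Fgfr3 had 0.13 ± 0.08 and Fgfr1 -0.0029. Of 23 genes of the Ras-ERK cascade, 15 were tested and 8 were not analysed here. Their differences ran from -0.11 (Shoc2, a Ras scaffold) to 0.13 (Ptpn11, the phosphatase SHP2), and 0 had an unadjusted p below 0.05.

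Regulators of the PEA3 factors themselves showed no gene that passed in limma among 12 tested, with 3 lower and 1 higher at an unadjusted p below 0.05. Cic, which encodes Capicua, read 9.75 and 9.66 on ethanol arrays 2 and 4, against 9.77, 9.50, 9.68 and 9.74 on saline arrays 1, 3, 5 and 6. The groups overlapped, and the difference was 0.03 ± 0.08 (limma adjusted p = 0.928). Atxn1l, a Capicua partner, had 0.16 ± 0.06 (limma adjusted p = 0.344). Cop1 had -0.04 ± 0.06, and the COP1 adaptor genes Trib2, Trib1 and Trib3 had -0.20 ± 0.06, -0.17 ± 0.06 and -0.16 ± 0.07. The Trib3 means, 5.50 for ethanol and 5.67 for saline, were below the background guide.

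The other ETS factors served as the rest of the family. Of 23, 16 were tested and 6 were dim, none passed in limma, and 2 were lower and 0 higher at an unadjusted p below 0.05. Their median difference was -0.05, with 12 below 0 and 4 above. The lowest was Ets1 (-0.22 ± 0.06, limma adjusted p = 0.193), which read 7.05 and 6.99 on ethanol arrays 2 and 4, against 7.24, 7.19, 7.31 and 7.21 on saline arrays 1, 3, 5 and 6. Next was the endothelial factor gene Erg (-0.19 ± 0.07), and the highest was Gabpa (0.17 ± 0.08). Elk1, which ERK activates at serum response elements, had 0.13 ± 0.06. Both Etv5 probesets were lower than all 16, and Etv4 about level with Ets1, but no test sets the PEA3 factors apart from the family.

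Reported targets of PEA3 factors (12 tested) had a median of -0.03, with 8 below 0, none passing in limma, and 0 lower and 1 higher at an unadjusted p below 0.05. That gene was Th, tyrosine hydroxylase, a target of Etv1 in dopaminergic neurons, with 0.29 ± 0.10 (limma adjusted p = 0.258). Th read 8.11 and 8.10 on ethanol arrays 2 and 4, against 8.02, 7.58, 7.88 and 7.76 on saline arrays 1, 3, 5 and 6. The other dopaminergic genes of the list did not share this direction, with -0.09 ± 0.06 for Slc6a3 and -0.04 ± 0.10 for Ddc. Met, a receptor gene downstream of Etv4 and Etv5 in the mouse kidney, had -0.12 ± 0.08, Grin2c of cerebellar granule cells -0.10 ± 0.07 (means of 5.73 for ethanol and 5.84 for saline, below the background guide), and Cxcr4 -0.08 ± 0.07.

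**Figure D4:**
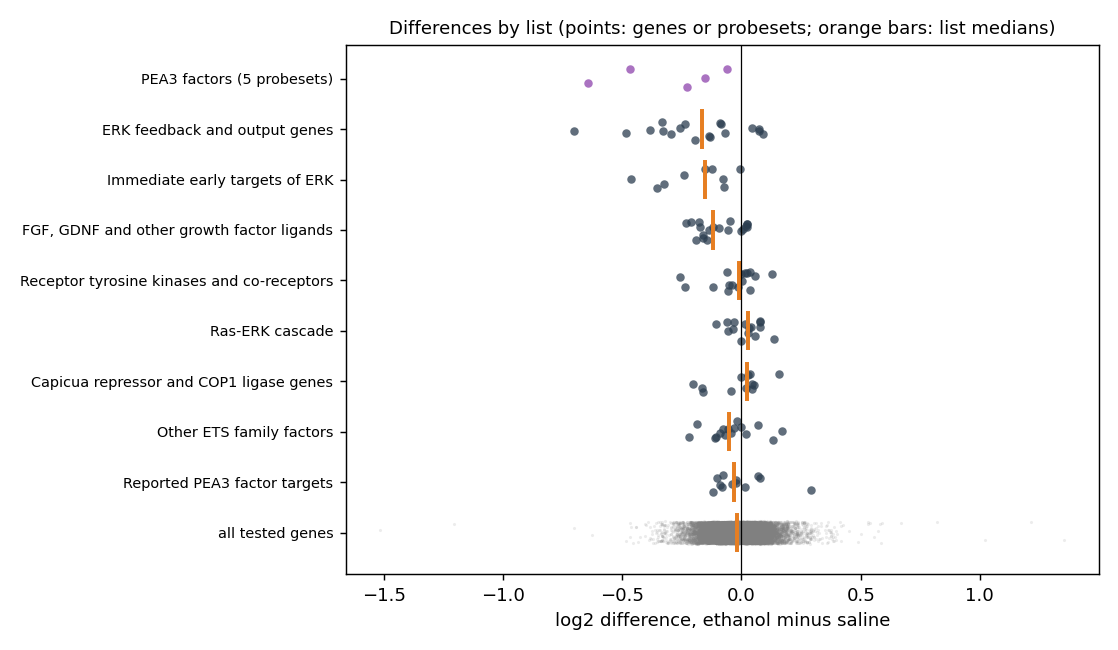
Differences (log2, ethanol minus saline, horizontal axis) of the PEA3 factor probesets, of the tested genes of 8 lists around them and of all 14953 tested genes. Orange bars are list medians; they lie at -0.17 for ERK feedback and output genes, -0.15 for immediate early targets and -0.12 for ligands, and near 0 for receptors, the Ras-ERK cascade and Capicua and COP1 genes.

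Markers of cells that express the factors were set beside these values. Of 8 oligodendrocyte precursor markers, 5 were below 0 and 3 above. The lineage factor gene Olig2 (-0.32 ± 0.07, limma adjusted p = 0.0827) had the lowest difference, while Pdgfra and Sox10 had 0.01 and 0.03. The mean level of that list was 9.43 and 9.47 on ethanol arrays 2 and 4, against 9.55, 9.47, 9.51 and 9.56 on saline arrays 1, 3, 5 and 6. Of 9 astrocyte markers, 6 were below 0, led by S100b (-0.18 ± 0.06), and the list averaged 10.25 and 10.30 on ethanol arrays 2 and 4, against 10.33, 10.29, 10.32 and 10.32 on saline arrays 1, 3, 5 and 6. In the layer 5 list (8 tested, 5 below 0, median -0.03), Deptor had 0.16 ± 0.06, Fezf2 -0.15 ± 0.06 and Crym -0.11 ± 0.06. In the granule cell list (8 tested, 6 below 0, median -0.08), Barhl1 had 0.17 ± 0.07, Cbln3 -0.20 ± 0.10, Pax6 -0.14 ± 0.07 and Atoh1 -0.13 ± 0.08. None of these passed in limma, and at an unadjusted p below 0.05 the layer 5 list had 1 higher and 1 lower and the granule cell list 1 higher and 0 lower. By the same measure the oligodendrocyte precursor list had 2 lower (Olig2, and Olig1 with -0.16 ± 0.07) and 0 higher. The astrocyte list had 2 lower (S100b, and Sox9 with -0.13 ± 0.06) and 0 higher. Of all tested genes, 8.44% were lower and 3.85% higher. Pituitary markers differed most, and all 4 tested were below 0. That list averaged 6.52 and 5.77 on ethanol arrays 2 and 4, against 6.87, 6.74, 6.94 and 6.94 on saline arrays 1, 3, 5 and 6. The large differences were those of Gh (-1.52 ± 0.38) and Cga (-1.20 ± 0.21), both lower on ethanol array 4 than on 2. Fshb (-0.17 ± 0.08) and Lhb (-0.02 ± 0.09) had group means below the background guide. None of the 4 passed in limma, and 3 were lower and 0 higher at an unadjusted p below 0.05. Relative to the saline mean, ethanol arrays 2 and 4 were at -0.64 and -0.65 for Etv5 probeset 10438626, -0.40 and -0.53 for 10363901, -0.20 and -0.25 for Etv4, -0.11 and -0.20 for Etv1 probeset 10395457, and -0.06 and -0.07 for 10406934. The part of these cells in the PEA3 values was not tested.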

How the data were processed

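The series matrix deposited by the authors holds processed log2 intensities, made with Partek 6.6 per the submitters' processing notes. The log base was inferred from their range of 4.10 to 14.9, and the background correction and normalization are likewise not given in the sources. Values were used as deposited. Of 35556 probesets, 21789 had 1 gene symbol in the platform annotation, 1621 had several and 12146 were unnamed here. Symbols were updated through gene IDs (21698 matched). Each gene was represented by its brightest probeset, the dimmest 25% of 19938 genes (4985, up to 5.55) were left out, and 14953 were fitted with limma 3.58.1 (R 4.3.3) on treatment alone, two-sided, with Benjamini-Hochberg adjustment at 0.05. The fit had 4 residual degrees of freedom plus 8.10 from the prior. Standard errors of all 5 PEA3 probesets use that prior. The number of arrays limits the precision, and p-values reflect only how pools of separate animals vary.

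The members and the 19 gene lists were chosen with earlier results of these data known. Named genes are the members, list genes that passed, up to 3 others per pathway list with the smallest p (1 per marker list), and the 5 nearest genes per probeset; all other list genes given were chosen after their values were seen. On simulated data for the ethanol and saline comparison (14953 genes), the fit recovered 100% of 109 genes changed by 1 log2 unit and 78% of 91 changed by 0.5. Alternatives were other filters, probeset rules, scalings and variance priors, array weights, and leaving out each array.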

Additional observations from a re-analysis of the deposited data

Results flagged for a closer look

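Among the 62 probesets and genes named, 2 had 1 saline array far from the other 3, by the Dixon criterion at 95% for 4 samples. Gab1, a Ras-ERK adaptor gene, read 10.16 on saline array 6, against 10.05 to 10.07 on the other saline arrays. Met read 8.93 on saline array 3, against 9.17 to 9.21 on the others. Chance gives about 5% of groups such a gap. No PEA3 factor probeset had one.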

How the results depend on the processing

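All 48 recomputed PEA3 differences, over 10 alternatives of scaling, array weights, mean of probesets and arrays left out, were below 0. Both ethanol arrays lay below every saline array on all 5 probesets. Weighting or leaving out arrays, or averaging probesets, therefore could not turn the sign, and nothing is read from that count. The Etv5 differences lay between -0.68 and -0.59 (10438626) and between -0.53 and -0.40 (10363901), with -0.56 for the mean of both probesets. Etv4 moved to -0.18 after quantile normalization and ranged from -0.25 to -0.20 with 1 array left out, and the mean of the Etv1 probesets gave -0.11. The 12 genes called became 52 with the dimmest 50% left out, 23 with quantile normalization, 43 with a variance trend, 56 with array weights, 0 in limma's linear model with no prior (1535 at an unadjusted p below 0.05), and 4 to 16 with 1 array left out (4 without ethanol array 4). After centring 8 passed, 7 higher and 1 lower. Of the pathway genes, 2 passed, against 1 after centring, 4 with a variance trend, 0 with no prior (19 at an unadjusted p below 0.05), and 1 to 3 with 1 array left out (1, Dusp6, without ethanol array 4). Medians near 0 turned sign. With 1 array left out, the receptor list ranged from -0.033 to 0.012 (above 0 without ethanol array 2 or saline array 6), the Ras-ERK list from -0.016 to 0.045 (below 0 without saline array 3) and the Capicua list from -0.0075 to 0.025 (below 0 without ethanol array 2 or saline array 3). The receptor median was 0.0028 with the dimmest 50% left out and the Ras-ERK median -0.012 with array weights. The cause was not tested. Without ethanol array 2 or 4, the lone ethanol array is assumed to vary like the saline arrays. No paired analysis was possible, because the arrays are numbered straight through both groups and the labels do not number littermates. Whether ethanol and saline pools shared litters cannot be told from the labels. Etv4 is limited by its signal near background.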
